A study of Mus musculus with 12 samples.

Results

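The chemokines are small secreted proteins and their receptors are mostly G protein-coupled receptors on white blood cells. The genes described here are the 56 mouse genes, 34 for ligands and 22 for receptors, that the arrays measured under a Ccl, Cxcl, Cx3cl, Xcl, Ccr, Cxcr, Cx3cr, Xcr or Ackr symbol, out of 22180 genes in all. A gene entered when a probe set carried that 1 symbol and no other in the platform annotation, and of several probe sets the one with the highest mean was kept, which mattered only for Ccl27a. The symbol rule used no measured value beyond that, although it was chosen with earlier results of these data known. Male mice that were 8 weeks old at the start received a Paigen diet with 1.25% cholesterol (HCD) or a chow without cholesterol (ND) for 9 weeks, and total RNA of the liver was hybridised to Affymetrix arrays. The 4 groups were Lats2-CKO on HCD, wild-type on HCD, Lats2-CKO on ND and wild-type on ND, with 3 arrays each that the labels call biological replicates. The labels name the mutant both Lats2-CKO and Lats2-KO, and the sources used here do not give the deleted stretch, the Cre driver, the cells it acts in or the strain. The question behind the design was how loss of Lats2, a kinase of the Hippo pathway, alters the response of the liver to dietary cholesterol.

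Chemokines act as signposts: a cell that secretes a ligand sets up a gradient, and cells with the matching receptor move along it or adhere to the vessel wall. Inflammatory ligands are switched on by tumour necrosis factor, interleukin 1 or interferon through transcription factors such as NF-kappaB, homeostatic ligands are made steadily, and atypical receptors bind ligands without G protein signalling and remove them. In the liver the ligands come from Kupffer cells, endothelial cells, stellate cells and hepatocytes, while most receptors sit on leukocytes that enter from blood. In such bulk samples fewer cells of a type and less RNA per cell cannot be told apart.

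Values below are log2 expression, and the 3 values of a group follow the replicate numbers 1, 2 and 3 of the labels. Changes come from a limma fit with 1 mean per group, with the standard error of the fit and p-values adjusted by Benjamini-Hochberg over all 22180 genes, and a gene passed at an adjusted p below 0.05. Lats2 itself read 4.62, 4.89 and 4.99 in Lats2-CKO and 5.12, 5.71 and 5.97 in wild-type livers on HCD, and 4.37, 4.76 and 4.79 in Lats2-CKO and 5.15, 5.14 and 5.69 in wild-type livers on ND. Every mutant array lay below every wild-type array within a diet, although the difference of -0.72 ± 0.16 over both diets had an adjusted p of 0.486. The arrays fell into 6 with medians of 3.48 to 3.49 and 6 with medians of 3.42 to 3.43. The first set held 1 HCD and 2 ND arrays of each genotype and the second 2 HCD arrays and 1 ND array of each, so set and diet partly coincide, and the labels name no batch. Inside a set, a diet comparison within 1 genotype therefore has a single array on 1 side. A genotype comparison has 1 array against 1 on HCD in the higher set and on ND in the lower set. It has 2 against 2 on ND in the higher set and on HCD in the lower set. Differences inside a set are given here as values only, although fits within each set enter the counts over the alternatives below. Wild-type ND array 3 lay nearer to an HCD array than to its own group. Its best correlation over all genes was 0.982 within the group and 0.993 with a Lats2-CKO HCD array. No other ND array correlated best with an HCD array. All wild-type HCD arrays, Lats2-CKO HCD arrays 1 and 3 and Lats2-CKO ND array 1 also correlated better outside their group than within it. For wild-type HCD array 3 the values were 0.986 within the group and 0.995 with a Lats2-CKO HCD array. Results that depend on wild-type ND array 3 are given with and without it.

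Much of the family lay near the bottom of the array's scale. Of the 56 genes, 36 had a mean above 3.05, the 30th percentile of all values, and 20 had a mean below it. The range over the 12 arrays was under 1 log2 unit for 39 genes and at least 1 for 17, and none of the 20 dim genes belonged to the 17 (largest range 0.744). The 3 interferon-inducible ligands Cxcl9, Cxcl10 and Cxcl11 had ranges of 3.33 to 4.67, the 16 inflammatory CC ligands a median range of 0.563 and a largest one of 3.34, and the 10 CC receptors a largest range of 0.976. Cxcr4 was the only 1 of the 22 receptors with a range of at least 1, at 1.53. The heat map of all members shows this as a small number of coloured rows, nearly all of them ligands.

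**Figure D1:**
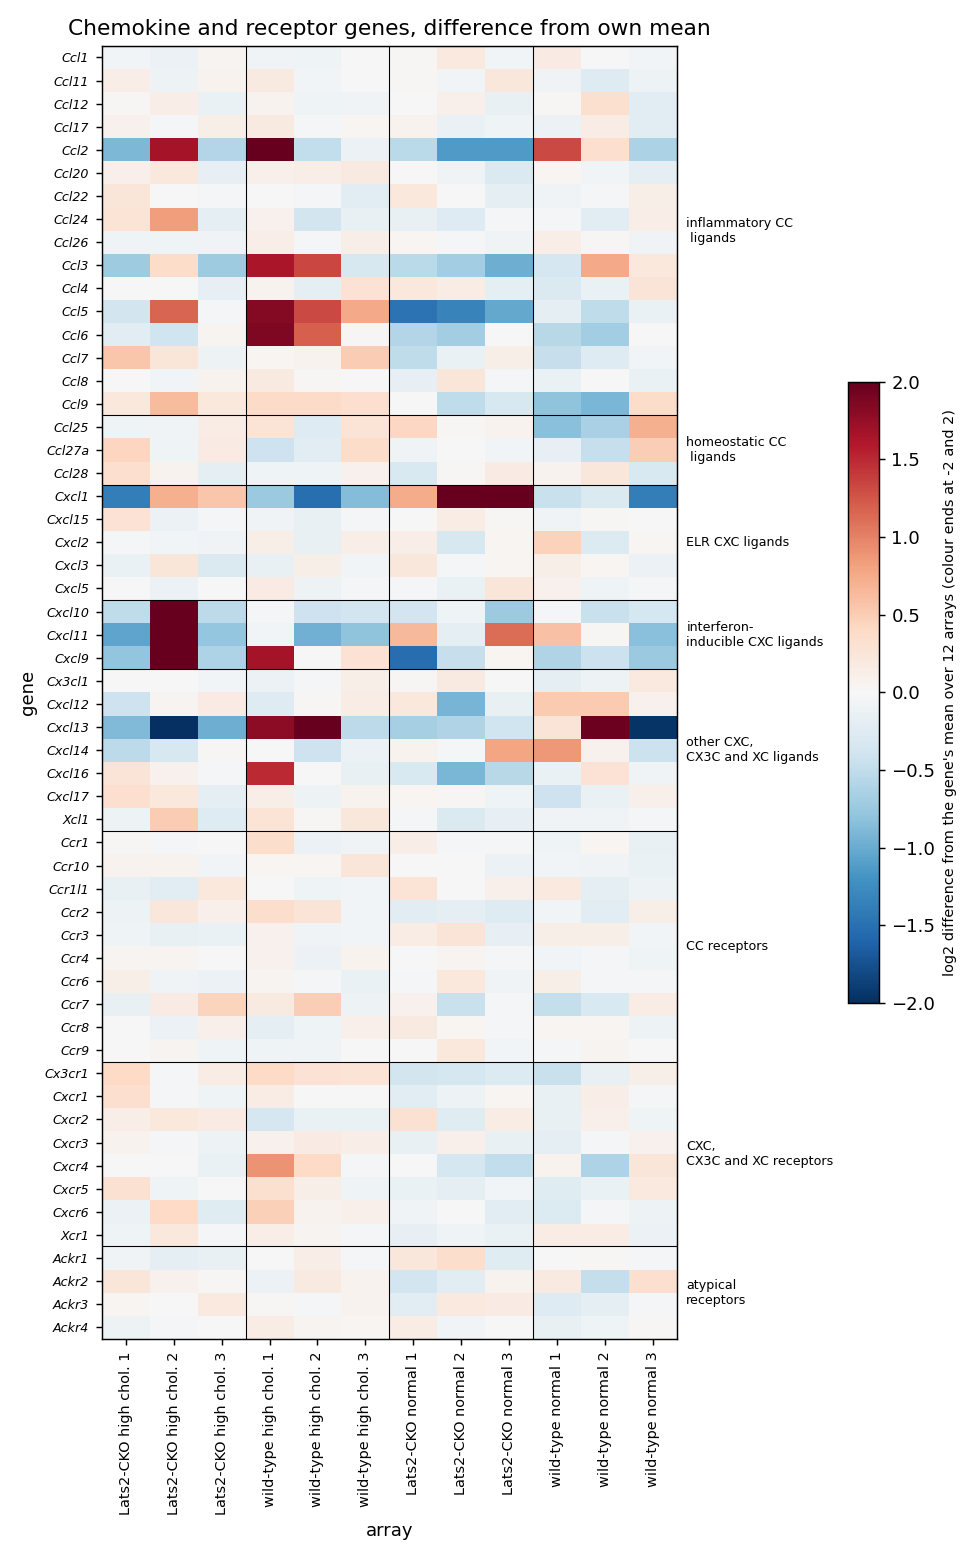
Each cell is a gene's log2 value on 1 array minus that gene's mean over the 12 arrays, with genes in rows by role and arrays in columns by group; colour ends at -2 and 2. Strong colour is limited to a few ligands, among them Ccl5, Ccl6, Cxcl1, Cxcl13 and the block of Cxcl9, Cxcl10 and Cxcl11 on Lats2-CKO HCD array 2.

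The high-cholesterol diet was the condition with called changes in this family. Over both genotypes 274 of 22180 genes passed (1.24%), 81 of them higher on HCD (0.365%), and among the chemokine genes 2 of 56 passed (3.57%), both higher: the ligand Ccl5 and the receptor Cx3cr1. At an unadjusted p below 0.05 there were 10 of 56 chemokine genes (17.9%), 9 of them higher (16.1%), against 18% of all genes and 7.56% higher. The fitted difference was above 0 for 36 of 56 chemokine genes (64.3%) and for 44.7% of all genes, and the median was 0.08 for the chemokine genes and -0.02 for all genes.

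Ccl5 (RANTES) attracts T cells, monocytes and NK cells. It read 5.35, 6.88 and 5.70 in Lats2-CKO livers and 7.56, 7.04 and 6.48 in wild-type livers on HCD. On ND it read 4.25, 4.38 and 4.70 in Lats2-CKO livers and 5.52, 5.22 and 5.59 in wild-type livers. Within each genotype every HCD array was above every ND array. Ccl5 rose by 1.56 ± 0.25 over both genotypes, 2.94-fold, at an adjusted p of 0.0301 in the limma fit. The diet difference was 1.54 ± 0.36 in Lats2-CKO livers (adjusted p = 0.0968) and 1.58 ± 0.36 in wild-type livers (adjusted p = 0.307). Of the 12 fits that each left out 1 array, 5 kept the call, with changes of 1.33 to 1.71 in all 12. The call was lost at adjusted p of 0.0565 to 0.0940 without wild-type ND array 1 or 2, Lats2-CKO ND array 1, 2 or 3, wild-type HCD array 2 or Lats2-CKO HCD array 3. With the array sets as a block the adjusted p was 0.0670, and the difference was 1.61 within the higher set and 1.38 within the lower one.

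Cx3cr1, the fractalkine receptor of patrolling monocytes and some tissue macrophages, was low on all arrays. It read 3.82, 3.37 and 3.57 in Lats2-CKO and 3.81, 3.71 and 3.69 in wild-type livers on HCD, against 3.05, 3.07 and 3.15 in Lats2-CKO and 2.97, 3.27 and 3.53 in wild-type livers on ND. Within each genotype every HCD array was above every ND array, as for Ccl5; these were the only 2 chemokine genes with that pattern, which 195 of all genes showed (0.879%). Cx3cr1 rose by 0.49 ± 0.10 over both genotypes, 1.41-fold, at an adjusted p of 0.0484. The diet difference was 0.50 ± 0.15 in Lats2-CKO livers (adjusted p = 0.158) and 0.48 ± 0.15 in wild-type livers (adjusted p = 0.329). Without wild-type ND array 3 the adjusted p was 0.00708, and without any 1 of the 11 others it was 0.0651 to 0.129. Within the array sets the difference was 0.73 in the higher and 0.25 in the lower set, and its adjusted p was 0.0896 with the sets as a block. Its ligand Cx3cl1, a membrane-tethered chemokine, stayed between 2.78 and 3.18 on all 12 arrays.

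Markers of macrophages and Kupffer cells moved in the same direction with the diet. All 15 of the list were measured. Over both genotypes 14 were higher on HCD, and the median difference of the 15 was 0.93. In the limma fit 4 of the 15 passed, against 1.24% of all genes. The mean of the list was 6.93 to 7.51 in Lats2-CKO and 7.26 to 8.63 in wild-type livers on HCD, against 6.42 to 6.62 in Lats2-CKO and 6.95 to 7.23 in wild-type livers on ND. Clec4f, a lectin of Kupffer cells, rose by 0.53 ± 0.09, and Cd5l, a secreted macrophage protein, by 1.78 ± 0.32. The haemoglobin scavenger receptor Cd163 was the exception, with a difference of -0.87 ± 0.34 (adjusted p = 0.209). For T cell markers 0 of 9 and for NK cell markers 0 of 8 passed in the limma fit. At an unadjusted p below 0.05 there were 1 and 2 of them, against 18% of all genes. Of the 2 NK cell markers 1 was higher and 1 lower on HCD. The part of any of these cells in the Ccl5 and Cx3cr1 results was not tested.

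**Figure D2:**
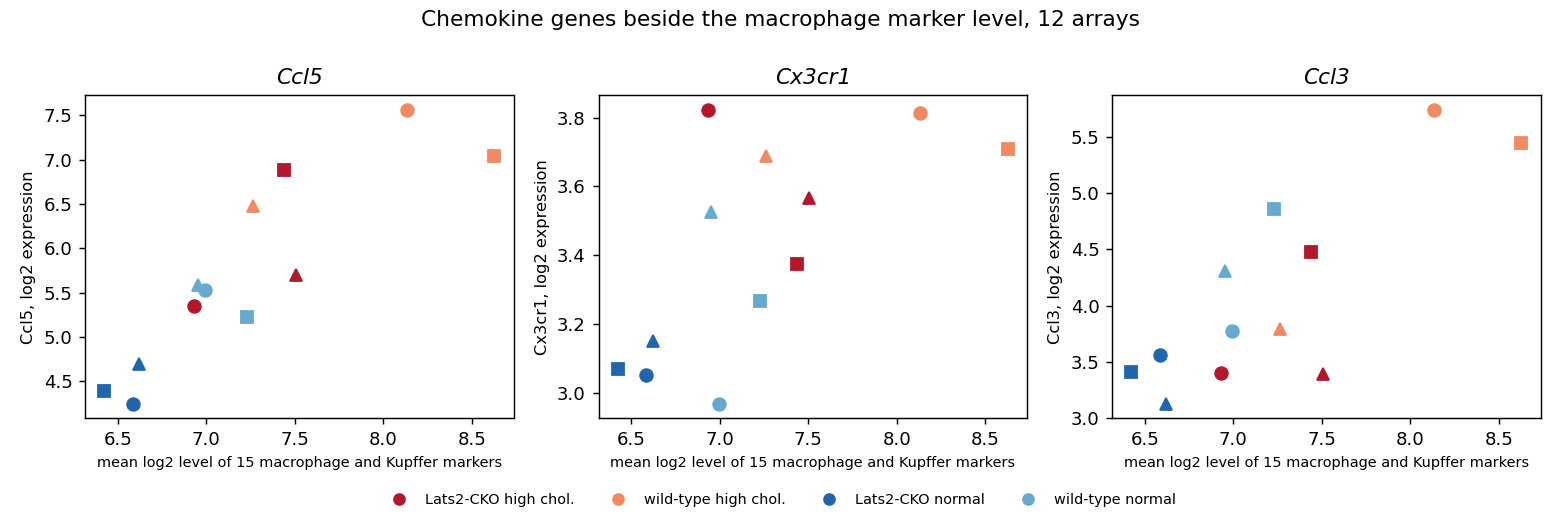
Log2 expression of Ccl5, Cx3cr1 and Ccl3 (y axes) against the mean log2 level of 15 macrophage and Kupffer markers (x axes); each point is 1 of 12 arrays, coloured by group. The 3 Lats2-CKO ND arrays have the lowest marker means (6.42 to 6.62) and the lowest Ccl5 values (4.25 to 4.70).

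Other inflammatory CC ligands had differences in the same direction that did not pass with all arrays. Ccl9, a monocyte attractant of rodents, read 9.68, 10.11 and 9.68 in Lats2-CKO and 9.85, 9.85 and 9.81 in wild-type livers on HCD, against 9.47, 8.96 and 9.15 in Lats2-CKO and 8.65, 8.55 and 9.84 in wild-type livers on ND. Wild-type ND array 3 alone reached the HCD level. With all arrays the difference over both genotypes was 0.72 ± 0.20 (adjusted p = 0.104), and without that array it was 0.93 (adjusted p = 0.00148). In wild-type livers it was 0.82 ± 0.29 with the array (adjusted p = 0.370) and 1.23 without it (adjusted p = 0.00795). Without the array 3 of 56 chemokine genes passed over both genotypes, Ccl5, Ccl9 and Cx3cr1, where 7.24% of all genes did, and 2 passed in wild-type livers, Ccl9 and Ccl25, where 2.33% of all genes did. The share of members was thus 5.36% and 3.57% in these fits.

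Ccl6, a close relative of Ccl9 in rodents, read 6.36, 6.20 and 6.65 in Lats2-CKO and 8.46, 7.79 and 6.62 in wild-type livers on HCD, against 6.0, 5.90 and 6.6 in Lats2-CKO and 6.03, 5.89 and 6.6 in wild-type livers on ND. Only wild-type HCD arrays 1 and 2 stood clear of the rest. The diet difference was 0.23 ± 0.39 in Lats2-CKO and 1.45 ± 0.39 in wild-type livers, and the interaction of -1.22 ± 0.55 had an unadjusted p of 0.0491 and an adjusted p of 0.888. Without wild-type HCD array 1 the interaction was -0.80 and the genotype difference on HCD -0.80, and without wild-type HCD array 3 they were -1.72 each; in both cases neither passed. The diet difference in wild-type livers was 2.50 within the higher array set, where array 1 was the only wild-type HCD array, and 0.61 within the lower set, where array 3 was the only wild-type ND array. Without wild-type HCD array 3 the diet difference in wild-type livers was 1.95 at an adjusted p of 0.0303.

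Ccl7, a ligand of the monocyte receptor Ccr2, was 0.40 ± 0.21 higher in Lats2-CKO and 0.47 ± 0.21 higher in wild-type livers on HCD, and 0.43 ± 0.15 higher over both (adjusted p = 0.155). Ccl2, the main Ccr2 ligand, was uneven within groups instead. It read 3.40, 5.98 and 3.72 in Lats2-CKO and 6.51, 3.81 and 4.20 in wild-type livers on HCD, against 3.77, 3.18 and 3.17 in Lats2-CKO and 5.63, 4.65 and 3.68 in wild-type livers on ND. The diet difference over both genotypes was 0.59 ± 0.56 (adjusted p = 0.630). Ccl3 (MIP-1alpha), a ligand of Ccr1, read 3.40, 4.47 and 3.39 in Lats2-CKO and 5.74, 5.44 and 3.79 in wild-type livers on HCD, against 3.56, 3.41 and 3.13 in Lats2-CKO and 3.77, 4.86 and 4.31 in wild-type livers on ND. On ND the mutant arrays all lay below the wild-type arrays, and on HCD the ranges overlapped. Ccl24 (eotaxin-2), an eosinophil attractant, read 4.27 on Lats2-CKO HCD array 2 and at most 3.7 elsewhere. Ccl1, Ccl4, Ccl8, Ccl11, Ccl12, Ccl17, Ccl20, Ccl22 and Ccl26 each varied by less than 1 log2 unit over the 12 arrays.

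**Figure D3:**
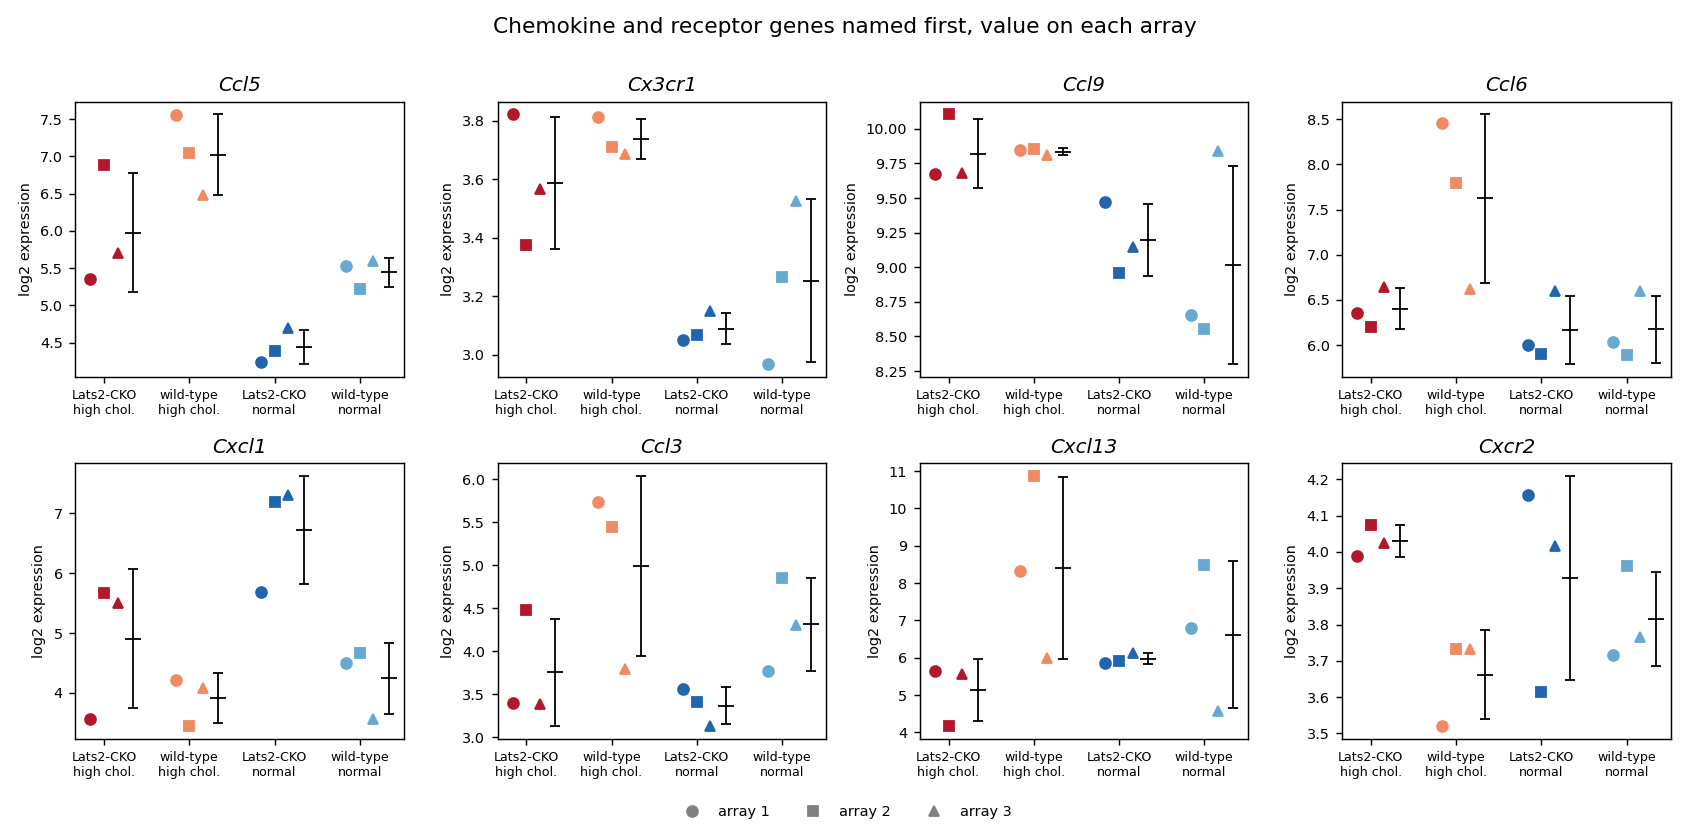
Log2 expression (y axes) of 8 chemokine genes on each array by group, with marker shape for the array number and bars for the group mean and SD (n = 3). Ccl5 and Cx3cr1 are higher on HCD in both genotypes, Ccl6 stands high on wild-type HCD arrays 1 and 2, and Cxcl1 is highest in Lats2-CKO livers on ND.

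The interferon-inducible ligands Cxcl9, Cxcl10 and Cxcl11 share the receptor Cxcr3 of activated T cells and NK cells. On Lats2-CKO HCD array 2 all 3 stood at their highest value in the series. Cxcl10 read 3.27, 7.66 and 3.26 in Lats2-CKO livers on HCD and lay between 3.05 and 3.77 on the other 11 arrays, a gap of 3.90 log2 units to the next array. Cxcl9 read 7.72, 11.65 and 7.89 in Lats2-CKO and 10.17, 8.51 and 8.80 in wild-type livers on HCD, against 6.98, 8.04 and 8.54 in Lats2-CKO and 7.90, 8.07 and 7.77 in wild-type livers on ND. The wild-type HCD arrays all lay above the wild-type ND arrays, whereas the Lats2-CKO groups overlapped. Cxcl11 read 3.45, 6.78 and 3.73 in Lats2-CKO and 4.44, 3.53 and 3.70 in wild-type livers on HCD, against 5.15, 4.31 and 5.62 in Lats2-CKO and 5.08, 4.52 and 3.67 in wild-type livers on ND. Over both genotypes the diet differences were 1.24 ± 0.62 for Cxcl9 (adjusted p = 0.328), 0.68 ± 0.64 for Cxcl10 (adjusted p = 0.626) and -0.45 ± 0.53 for Cxcl11 (adjusted p = 0.702).

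The same array carried more chemokines than these. It exceeded both other arrays of its group by at least 1 log2 unit for 6 of the 56 chemokine genes, Cxcl9, Cxcl10, Cxcl11, Ccl2, Ccl5 and Ccl3, and for 122 of all genes (0.550%). Irf1, an interferon-induced transcription factor, read 4.81, 7.74 and 6.01 in Lats2-CKO livers on HCD and 5.43 to 6.0 on the 9 arrays of the other groups. The RNA of interferon gamma (Ifng) stayed between 2.73 and 3.32 on all arrays, with 3.32 on this one. Cxcr3, their shared receptor, ranged from 2.94 to 3.29. Wild-type HCD array 1 had such an excess for 3 chemokine genes, Ccl2, Cxcl16 and Cxcl9, and for 106 of all genes (0.478%). It was the highest of the 12 arrays for 13 of the 56 chemokine genes, and for 2132 of all genes (9.61%).

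**Figure D4:**
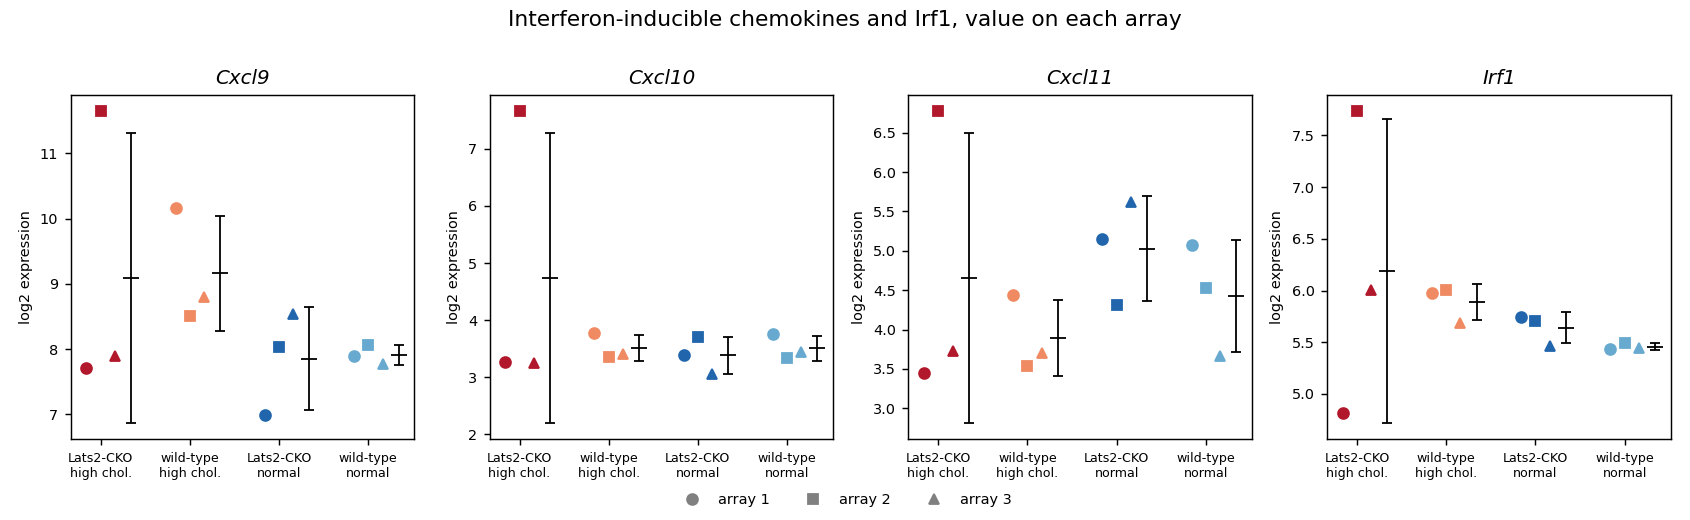
Log2 expression (y axes) of Cxcl9, Cxcl10, Cxcl11 and Irf1 on each array by group, with bars for the group mean and SD (n = 3). Lats2-CKO HCD array 2 is the highest of the 12 arrays in every panel, at 11.65, 7.66, 6.78 and 7.74.

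Promoter sequences of 4 CXC ligands are shown because Cxcl9 and Cxcl10 peaked together on 1 array, and because Cxcl1 and Cxcl2, related ELR ligands, had unlike values over the groups. RefSeq entries of build GRCm38.p6 were held for 42 of the 56 genes, with 46 promoters, each of 250 bases before and 50 bases after the annotated start. Capitals mark matches on either strand to the letters GAAANNGAAA (interferon response element), GGGNNNTTCC (NF-kappaB site) or TTCNNNGAA (STAT site), and overlapping matches run together. The windows are chr5:92328030-92328329 on the minus strand for Cxcl9, chr5:92348840-92349139 on the minus strand for Cxcl10, chr5:90890995-90891294 on the plus strand for Cxcl1 and chr5:90903649-90903948 on the plus strand for Cxcl2, each spanning the gene's annotated transcription start and written 5′ to 3′ on that strand.
Cxcl9: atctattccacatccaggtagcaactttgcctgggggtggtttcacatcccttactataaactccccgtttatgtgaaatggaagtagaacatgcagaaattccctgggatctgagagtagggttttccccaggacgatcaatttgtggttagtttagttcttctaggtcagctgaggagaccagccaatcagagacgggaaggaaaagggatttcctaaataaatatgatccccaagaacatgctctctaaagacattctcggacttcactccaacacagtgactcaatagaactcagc
Cxcl10: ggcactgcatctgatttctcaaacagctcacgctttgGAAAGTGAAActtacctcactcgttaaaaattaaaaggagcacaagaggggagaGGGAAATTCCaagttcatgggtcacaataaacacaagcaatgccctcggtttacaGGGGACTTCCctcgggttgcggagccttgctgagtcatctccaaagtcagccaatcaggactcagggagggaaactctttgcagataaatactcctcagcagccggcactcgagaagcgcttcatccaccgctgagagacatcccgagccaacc
Cxcl1: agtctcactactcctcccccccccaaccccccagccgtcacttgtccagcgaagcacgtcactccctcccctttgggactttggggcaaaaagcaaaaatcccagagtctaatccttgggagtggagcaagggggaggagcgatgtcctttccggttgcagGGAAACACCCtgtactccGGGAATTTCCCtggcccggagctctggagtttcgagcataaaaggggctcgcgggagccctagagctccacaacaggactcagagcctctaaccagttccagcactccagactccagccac
Cxcl2: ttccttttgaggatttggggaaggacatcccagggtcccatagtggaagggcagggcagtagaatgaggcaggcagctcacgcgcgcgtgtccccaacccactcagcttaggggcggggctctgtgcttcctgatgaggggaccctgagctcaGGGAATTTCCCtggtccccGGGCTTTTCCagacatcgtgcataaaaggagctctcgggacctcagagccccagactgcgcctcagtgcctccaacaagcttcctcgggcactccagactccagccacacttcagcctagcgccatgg
The Cxcl10 window held 1 match to the interferon letters and 2 to the NF-kappaB letters, the Cxcl1 and Cxcl2 windows 3 each to the NF-kappaB letters with some overlap, and the Cxcl9 window none of the 3 motifs. Among all 32851 promoters 3.44% held the interferon letters, 5.56% the NF-kappaB letters and 8.30% the STAT letters. The 42 chemokine genes were instead counted as genes, by a match in any of their promoters. The interferon letters were held by 2 (4.76%), Cxcl10 and Cxcl14. The NF-kappaB letters were held by 9 (21.4%), Ccl1, Ccl9, Ccl20, Ccr3, Ccr6, Cxcl1, Cxcl2, Cxcl3 and Cxcl10. The STAT letters were held by 4 (9.52%), Ccl17, Ccr1l1, Ccr6 and Cxcl14. A match describes the letters in the window and does not show that a factor binds there.

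Cxcl1 (KC) is a neutrophil attractant of the ELR group, which acts through Cxcr2. It read 3.56, 5.66 and 5.50 in Lats2-CKO and 4.21, 3.45 and 4.09 in wild-type livers on HCD, against 5.68, 7.19 and 7.30 in Lats2-CKO and 4.51, 4.67 and 3.57 in wild-type livers on ND. The 3 Lats2-CKO ND arrays were the highest of all 12. On ND the genotype difference was 2.48 ± 0.58, 5.57-fold, with an adjusted p of 0.230. In Lats2-CKO livers the diet difference was -1.82 ± 0.58 (adjusted p = 0.192), in wild-type livers it was -0.33 ± 0.58, and the interaction was -1.49 ± 0.82. The genotype difference on ND and the diet difference in Lats2-CKO livers rest on the same 3 Lats2-CKO ND arrays. Over the 12 fits with 1 array left out, the genotype difference on ND ran from 2.14 to 3.0 with adjusted p from 0.0684 to 0.538. It was 1.85 within the higher array set, with 2 arrays a genotype, and 3.73 within the lower one, which is Lats2-CKO array 3 minus wild-type array 3. Without Lats2-CKO HCD array 1, the lowest of its group, the diet difference in Lats2-CKO livers was -1.14 and the interaction -0.81; over the 12 fits they ran from -2.34 to -1.14 and from -2.01 to -0.81, and neither passed in any.

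Cxcl2, also a Cxcr2 ligand, lay between 3.54 and 4.33 on all arrays, with a genotype difference on ND of -0.13 ± 0.18 (adjusted p = 0.909). The ELR ligands Cxcl3, Cxcl5 and Cxcl15 lay between 2.67 and 3.28. Cxcr2, the neutrophil receptor, read 3.99, 4.07 and 4.02 in Lats2-CKO and 3.52, 3.73 and 3.73 in wild-type livers on HCD, without overlap, a difference of 0.37 ± 0.14 with an adjusted p of 1.0. On ND it read 4.16, 3.61 and 4.01 in Lats2-CKO and 3.72, 3.96 and 3.76 in wild-type livers, with overlap. The mean of 10 neutrophil markers on ND was 3.36 to 3.60 in Lats2-CKO and 3.08 to 3.74 in wild-type livers, and 5 of the 10 had a mean above 3.05. On HCD it was 3.31 to 3.58 in Lats2-CKO and 3.31 to 3.88 in wild-type livers. Their part in the Cxcl1 and Cxcr2 values was not tested.

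Cxcl13, the B cell attractant of lymphoid follicles, had the widest range of the family. It read 5.65, 4.17 and 5.56 in Lats2-CKO and 8.33, 10.87 and 6.01 in wild-type livers on HCD, against 5.86, 5.93 and 6.13 in Lats2-CKO and 6.79, 8.49 and 4.56 in wild-type livers on ND. On HCD the genotypes did not overlap and differed by -3.27 ± 1.13 (unadjusted p = 0.0148, adjusted p = 1.0), while the wild-type arrays differed by several log2 units among themselves. The difference was -2.04 without wild-type HCD array 2 and -4.47 without array 3. The mean of 8 B cell markers was 3.36, 3.02 and 3.28 in Lats2-CKO and 3.50, 4.50 and 3.02 in wild-type livers on HCD, highest on the array with the highest Cxcl13. On wild-type ND array 2, where Cxcl13 read 8.49, it was 3.14. The part of B cells in these values was not tested. The receptor Cxcr5 stayed between 2.72 and 3.28.

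Cxcl12, which holds leukocytes and progenitors through Cxcr4, was well expressed throughout. On ND it read 8.43, 7.29 and 8.06 in Lats2-CKO and 8.73, 8.73 and 8.30 in wild-type livers, a difference of -0.66 ± 0.27 (adjusted p = 0.475), with overlap through array 3 of the wild type. Lats2-CKO array 2 was the lowest; without it the difference was -0.34 (adjusted p = 0.886), and over the 12 fits with 1 array left out it ran from -0.91 to -0.34 without passing. On HCD it read 7.79, 8.27 and 8.37 in Lats2-CKO and 7.96, 8.24 and 8.36 in wild-type livers. The mean of 9 endothelial markers on ND was 7.06 to 7.27 in Lats2-CKO and 7.61 to 7.67 in wild-type livers, and on HCD 7.01 to 7.27 in Lats2-CKO and 7.52 to 7.68 in wild-type livers. All 9 were lower in Lats2-CKO livers over both diets, 0 passed in the limma fit and 7 had an unadjusted p below 0.05, against 5.97% of all genes; their part in the Cxcl12 values was not tested. Of the Cxcl12 receptors, Cxcr4 had a diet difference of 0.38 ± 0.18 over both genotypes (adjusted p = 0.308), and the scavenger Ackr3 lay between 2.87 and 3.31.

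Cxcl16, a transmembrane ligand and scavenger of oxidised lipoprotein, read 7.22, 7.06 and 6.95 in Lats2-CKO and 8.47, 6.98 and 6.83 in wild-type livers on HCD. On ND it read 6.67, 6.07 and 6.42 in Lats2-CKO and 6.83, 7.26 and 6.90 in wild-type livers. In Lats2-CKO livers every HCD array lay above every ND array, and on ND every Lats2-CKO array lay below every wild-type array; both comparisons use the same 3 Lats2-CKO ND arrays. The diet difference over both genotypes was 0.56 ± 0.25 (adjusted p = 0.271). Cxcr6, its receptor on liver NKT cells, was 0.23 ± 0.12 higher (adjusted p = 0.350), at 2.63 to 3.37. Ccl25, a gut-homing ligand, read 4.77, 4.79 and 5.0 in Lats2-CKO and 5.12, 4.60 and 5.13 in wild-type livers on HCD, against 5.26, 4.87 and 4.92 in Lats2-CKO and 4.02, 4.21 and 5.56 in wild-type livers on ND. Its diet difference in wild-type livers was 0.35 ± 0.33 with all arrays and 0.84 without wild-type ND array 3, at an adjusted p of 0.0477; without wild-type ND array 1 or 2 it was 0.06 or 0.16. Cxcl14, a chemokine of epithelia, had a diet difference of -0.45 ± 0.22 over both genotypes (adjusted p = 0.311).

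Among the receptors, only Cx3cr1 passed. Ccr2, which draws inflammatory monocytes, read 3.17, 3.49 and 3.37 in Lats2-CKO and 3.62, 3.53 and 3.22 in wild-type livers on HCD, against 3.05, 3.09 and 3.01 in Lats2-CKO and 3.21, 3.04 and 3.37 in wild-type livers on ND. Its diet difference was 0.27 ± 0.09 (adjusted p = 0.158), and only the Lats2-CKO groups were free of overlap. Ccr7, which guides dendritic and T cells to lymph nodes, was 0.34 ± 0.15 higher on HCD (adjusted p = 0.275). Of the 10 CC receptors 5 had a fitted diet difference above 0, of the 8 CXC, CX3C and XC receptors 7, and of the 4 atypical receptors 3. Ccr6, the Ccl20 receptor, stayed between 2.77 and 3.12, and Ccl20 between 2.59 and 3.10. Ccl19 and the Ccl21 family were not analysed here; 33 probe sets that carry several symbols with at least 1 of this family were left out.

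Within single genotypes no chemokine gene passed for diet. In Lats2-CKO livers 60 of all genes passed (0.271%), with 0 of 56 chemokine genes; 4 of the 56 had an unadjusted p below 0.05 (7.14%), against 13.4% of all genes. The HCD and ND arrays did not overlap for 5 chemokine genes that were higher, Ccl5, Ccl9, Ccr2, Cx3cr1 and Cxcl16 (8.93% against 8.98% of all genes), and for 2 that were lower, Cxcl1 and Cxcl13 (3.57% against 10.5%). In wild-type livers 0 of all genes passed (0%) and 0 of the 56, and at an unadjusted p below 0.05 there were 6 of 56, all higher (10.7%), against 10.6% of all genes and 4.03% higher. There the arrays did not overlap for 12 chemokine genes that were higher (21.4% against 4.97% of all genes) and for 0 that were lower (against 8.81%). These 12 were Ackr3, Ackr4, Ccl5, Ccl6, Ccl7, Ccl11, Ccl20, Ccr10, Cx3cr1, Cxcl9, Cxcr6 and Xcl1, of which 8 had a mean above 3.05. For interaction, 1 of all genes passed (0.00451%) and 0 of the 56, where 1 gene, Ccl6, had an unadjusted p below 0.05 (1.79%), against 5.62% of all genes; Ackr4, a scavenger of homeostatic ligands, followed at -0.23 ± 0.12. A difference between the genotypes in their diet response was therefore not shown for any chemokine gene.

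**Figure D5:**
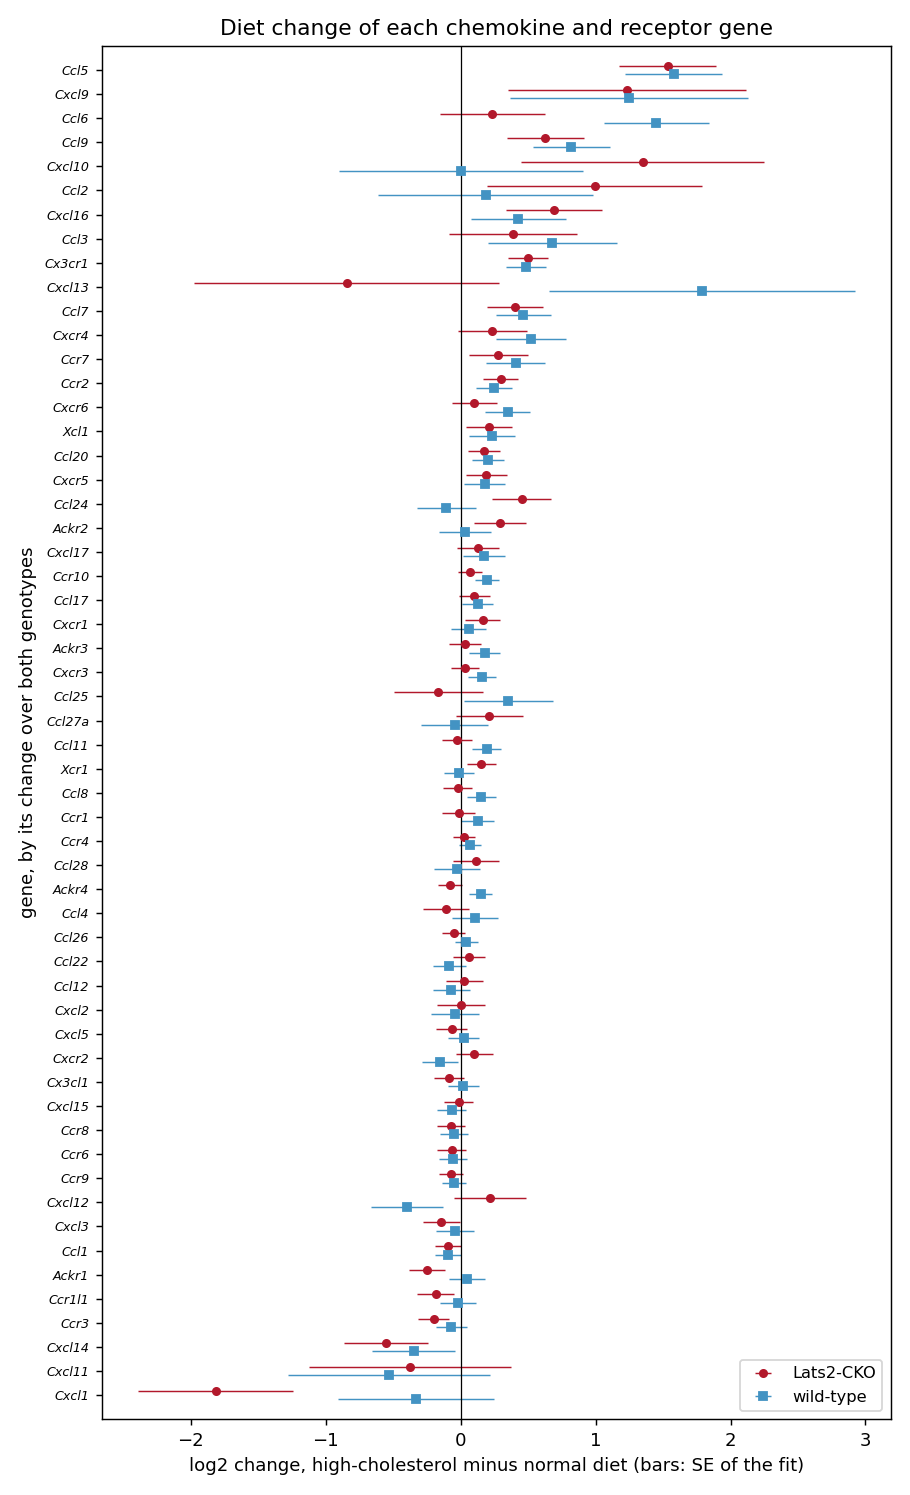
Fitted log2 difference of HCD minus ND (x axis) for each of the 56 genes in Lats2-CKO and wild-type livers, ordered by the difference over both genotypes, with bars for the standard error of the fit. Ccl5 lies at 1.54 and 1.58 and Cx3cr1 at 0.50 and 0.48, while the points of Ccl6, Cxcl1 and Cxcl13 lie apart between the genotypes, with interactions that did not pass.

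Genotype gave no called chemokine gene. The genotype and diet comparisons use the same 4 groups and are not independent of each other. On HCD 0 of all genes passed (0%) and 0 of the 56; 5 of the 56 had an unadjusted p below 0.05 (8.93%), against 2.93% of all genes. These were Ccl6 at -1.22 ± 0.39, Ccl5 at -1.05 ± 0.36, Cxcl13, Ccl3 at -1.24 ± 0.48 and Cxcr2. On ND 3 of all genes passed (0.0135%) and 0 of the 56, of which 3, Cxcl1, Ccl5 and Cxcl12, had an unadjusted p below 0.05 (5.36%), against 8.99% of all genes. Ccl5 differed there by -1.0 ± 0.36 (adjusted p = 0.403), with every Lats2-CKO array below every wild-type array, and Ccl3 by -0.95 ± 0.48. Ccl11 (eotaxin), an eosinophil attractant, was 0.21 ± 0.11 higher without overlap, and 0.13 higher without Lats2-CKO ND array 3. On ND the genotypes did not overlap for 2 chemokine genes that were higher, Ccl11 and Cxcl1 (3.57% against 5.96% of all genes), and 3 that were lower, Ccl3, Ccl5 and Cxcl16 (5.36% against 7.36%). On HCD these were 1 higher, Cxcr2 (1.79% against 4.07%), and 6 lower, Ackr1, Ackr4, Ccl26, Ccr3, Cxcl13 and Cxcr3 (10.7% against 3.37%). Of these 6 lower genes 4 had a mean above 3.05.

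Over both diets 1 of all genes passed for genotype (0.00451%) and 0 of the 56, and 6 of the 56 had an unadjusted p below 0.05 (10.7%, against 5.97% of all genes). Cxcl1 differed by 1.73 ± 0.41 (adjusted p = 0.565), Ccl5 by -1.02 ± 0.25 (adjusted p = 0.565) and Ccl3 by -1.09 ± 0.34 (adjusted p = 0.714). Cxcl13 differed by -1.96 ± 0.80, Ccl6 by -0.61 ± 0.27 and Cxcr2 by 0.24 ± 0.10. The median over the 56 genes was 0.00, as over all genes. Of the 15 macrophage and Kupffer markers 14 were lower in Lats2-CKO livers over both diets, with a median of -0.71; 0 passed in the limma fit and 10 had an unadjusted p below 0.05, against the same 5.97% of all genes. Their part in the Ccl5 and Ccl3 differences was not tested.

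Genes around the family were read from 2 lists. Of 20 genes for signalling below the receptors 18 were measured. Over both genotypes 17 were higher on HCD, with a median of 0.38. In the limma fit 0 passed and 5 had an unadjusted p below 0.05, against 18% of all genes. Plcb2, a leukocyte phospholipase C activated by G proteins, came nearest, at 0.53 ± 0.12 (adjusted p = 0.0615). In Lats2-CKO livers 17 of the 18 were lower than in wild-type livers over both diets, with a median of -0.32. In the limma fit 0 passed and 5 had an unadjusted p below 0.05, against 5.97% of all genes. Many of these genes, such as Rac2 and Dock2, are expressed mainly in blood cells. Of 17 inducers (cytokines, Toll-like receptors and genes of the NF-kappaB and interferon pathways) 15 were measured. Of these 10 were higher on HCD and 0 passed. In the limma fit 2 had an unadjusted p below 0.05, against 18% of all genes. Of the 2, 1 was higher and 1 was lower on HCD, the latter Il6 at -0.21 ± 0.08. Relb, an NF-kappaB subunit, came nearest, at 0.16 ± 0.06 (adjusted p = 0.192).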

How the data were processed

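The deposited table holds RMA values of 41345 probe sets on 12 arrays, made by the authors with RMA and Partek 6.6, per the submitters' processing notes. These deposited values were read as log2 expression from their range of 1.94 to 14.16; no label states the scale. The genome build is not given in the sources used here. Symbols came from the platform annotation: 23521 probe sets have 1 symbol, 1814 several and 16010 none. Each of 22180 genes kept its brightest probe set. Group means were fitted with limma 3.58.1 (lmFit, eBayes) in R 4.3.3, without covariates, and p-values adjusted by Benjamini-Hochberg. Arrays carry no read depth; 3 arrays a group limit the precision, and where the samples are not separate animals p-values measure technical spread. The fit was tested on simulated data. Members and lists were chosen with earlier results of these data known. Named genes were those that passed in any contrast, with or without wild-type ND array 3; the 5 members with the smallest p per contrast (3 for the interaction); fixed ligand and receptor pairs; and the 3 with the largest spread within groups. Other genes are named only to account for members or counts. Ccl1, Ccl26 and Ccr1l1 were added to the roles after the values were seen. Marker lists covered macrophages, monocytes, lipid-associated macrophages, neutrophils, T, NK, B and dendritic cells, endothelium, stellate cells, cholangiocytes and hepatocytes. Alternatives were array weights, priors, blocks, normalization, filters, probe-set rules, arrays left out and fits within an array set.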

Additional observations from a re-analysis of the deposited data

How the results depend on the processing

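Across 27 alternatives, 34 pairs of a named gene and a comparison gave 917 values, of which 875 kept direction and side of the threshold, 13 newly passed, 27 no longer passed and 2 changed sign. These counts include the fits within the higher and within the lower array set, which were not planned. There a group can have a single array, so passing in such a fit is not read as a result. For diet over both genotypes 2 chemokine genes passed with the fit as described, where 274 of all genes did. The number was 1 with a replicate block (311 of all genes) and 1 with median centring (203 of all genes). It was 0 without moderation of the variance (3 of all genes) and 0 with an array set block (43 of all genes). With 1 array left out it ran from 0 to 3, where 6 to 1605 of all genes passed. A fit added after seeing the data had a replicate block and left out wild-type ND array 3. There 5 chemokine genes passed, and 1459 of all genes did. For diet in wild-type livers the 0 became 1 with the array set block and that array left out, where 374 of all genes passed. With 1 array left out it ran from 0 to 2, where 0 to 516 of all genes passed. In the added fit with the replicate block and that array left out it was 1, where 363 of all genes passed. Within the higher set, where array 1 was the only wild-type HCD array, the wild-type diet difference was 2.19 for Ccl5 and 2.50 for Ccl6. The replicate numbers were not taken as pairs, as no label gives them a shared source. Correlations of same-numbered arrays' deviations from their group means ran from 0.00237 to 0.176. Of these 18 of 18 were above 0 but only 7 above 0.1. Between different numbers 27 of 36 were below 0, but centring on group means forces such values down when same-number values are positive. The highest value between different numbers was 0.182, for wild-type HCD array 2 and Lats2-CKO HCD array 3. In all, 9 of 12 arrays correlated best with one of their own number, a hint from the data and not the design. Every array numbered 1 was in the higher array set and every array numbered 3 in the lower, so number and set partly coincide. With the replicate block Ccl5 passed (adjusted p = 0.0421) and Cx3cr1 did not (adjusted p = 0.0584). The block called 311 genes over both genotypes, against 274; the counts over all alternatives ran from 3 without moderation to 1605 without wild-type ND array 3. The median member difference moved to 0.17 with dim genes left out for diet in wild-type (0.09 otherwise) and to 0.17 in Lats2-CKO livers (0.07 otherwise). Within the higher set it was 0.16 for diet in wild-type livers, -0.12 for genotype on HCD and -0.11 for the interaction, and within the lower set 0.030 for the interaction. Within the lower set the diet difference in wild-type livers was -0.70 for Ccl25 and -0.0099 for Ccl9, with wild-type ND array 3 as the only wild-type ND array there. The causes were not tested. Each array set has only 1 or 2 arrays a group, and a lone array is assumed to vary like the others, and the 20 dim genes lie where the signal is near background.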

Other observations

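The lipid-associated macrophage markers, which include the lipoprotein lipase gene Lpl and the lipid receptor Trem2, were read in the same livers. All 7 measured markers were higher on HCD over both genotypes, with a median difference of 0.66. In the limma fit 0 passed and 2 had an unadjusted p below 0.05, against 18% of all genes. Their mean read 5.17, 5.12 and 5.68 in Lats2-CKO and 7.44, 4.98 and 5.54 in wild-type livers on HCD, against 4.41, 4.25 and 4.62 in Lats2-CKO and 4.36, 4.51 and 6.0 in wild-type livers on ND. Wild-type ND array 3, which carried the high Ccl9 and Ccl25 values, had the highest mean of the ND arrays.

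Dendritic cell markers had 6 of 7 higher on HCD with a median of 0.10, monocyte markers 7 of 9 with 0.23, stellate cell markers 4 of 8 with 0.03, cholangiocyte markers 3 of 5 with 0.00 and hepatocyte markers 3 of 8 with -0.06. B cell markers were higher in 8 of 8 with a median of 0.33, T cell markers in 8 of 9 with 0.08, NK cell markers in 5 of 8 with 0.11, neutrophil markers in 6 of 10 with 0.06 and endothelial markers in 3 of 9 with -0.06. Among these lists 1 gene passed, where 1.24% of all genes did. It was the endothelial receptor Tek, which fell by 0.42 on HCD (adjusted p = 0.0369 in the limma fit).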
